A study of Bos taurus with 28 samples.

Results

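Amino acids that liver does not use for protein are stripped of nitrogen, their carbon enters energy and glucose metabolism, and the ammonia is made into urea. Transaminases move the amino group to glutamate, glutamate dehydrogenase frees it as ammonia, and the urea cycle joins it to bicarbonate and aspartate. Each carbon skeleton then has its own route, such as homogentisate for tyrosine, acyl-CoA esters for the branched-chain amino acids, homocysteine and cystathionine for methionine, and the glycine cleavage system for glycine. In the dairy cow soon after calving, amino acids are also a source of glucose, which the udder draws on for milk lactose.

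Of 52 genes of these routes listed for the comparison, 36 had a probe with their symbol in the array's annotation, out of 8073 genes with such a probe. They fell into 6 branches: 8 of the urea cycle and ammonia, 6 of aromatic amino acids, 9 of branched-chain amino acids and propionyl-CoA, 4 of sulphur amino acids, 4 of glycine and one-carbon metabolism, and 5 transaminases and enzymes of other amino acids. The 16 others, among them BHMT, TDO2, GNMT, SDS and NAGS, were not analysed here. Each of the 36 had a single probe, printed as 2 spots. OTC, ARG2, TAT and MCEE had values in too few cows to be tested, which left 32. The list was drawn up with earlier results of these data known, so it was not chosen blind to them.

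The study compared liver of 7 healthy and 7 ketotic Holstein cows that had calved more than once. All were healthy when examined on day 4 after calving, and chance decided the group of each cow. Healthy cows ate without restriction. Ketotic cows received 50% of their earlier intake, from day 5 by the design text and from day 4 by the sample labels, until clinical signs of ketosis or day 14; ketosis is the build-up of ketone bodies while body fat is drawn on faster than it is used. Healthy cow 7 is placed in its group by its title alone, since its description does not give its feeding.

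Each cow's liver RNA was set against a reference RNA pooled from cattle tissues on 2 arrays with the dyes exchanged. Values are log2 ratios of liver over reference, centred on each array's median, with a cow's 2 arrays averaged and counted as 1 replicate. A value of 0 is the array's median ratio, and a ratio says how a gene stands in liver against the reference, not how abundant its mRNA is. Since these are whole-liver samples, fewer cells of a type and less RNA per cell cannot be told apart. The dye direction is called likely, from titles and from hepatocyte markers, which lay above genes of other tissues on 28 of 28 arrays.

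Healthy cow 7 stood apart from the other 13 cows, so each result is given with it and without it. Across probes, the 13 other cows correlated with each other at 0.716 or more. Both of its arrays stood apart: with liver in Cy3 the median correlation with the other healthy arrays was 0.455, against 0.787 among those, and with liver in Cy5 it was 0.227 against 0.743. The median of the hepatocyte markers was 3.48 in this cow and 5.24 or more in the other healthy cows, with 16 of 20 listed markers tested. The stellate cell and fibroblast markers had a median of 0.50 in it and -1.44 or less in the other healthy cows, with 11 of 15 tested. Endothelial markers had a median of -0.11 in it and at least 2.52 in the other healthy cows, with 5 of 10 tested. Medians of the macrophage, red blood cell, skeletal muscle and adipocyte lists were also lower in it than in every other healthy cow. Those of the bile duct and lymphocyte lists were higher, and that of the neutrophil list lay within the range of the others. The part of these in the results was not tested.

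With all 14 cows, no gene of amino acid catabolism or the urea cycle passed the test. The test was limma's moderated test over 6958 genes with Benjamini-Hochberg adjustment at 0.05, and 0 of 32 passed. At that threshold 12.4% of all genes were called lower and 0.92% higher, 13.4% together. At an unadjusted limma p under 0.05, 6 of the 32 were lower and 0 higher. Of all 6958 genes, 1697 were lower and 279 higher at the same unadjusted threshold. The groups did not overlap in 0 of the 32, beside 5.39% of all genes with every ketotic cow below. The median difference, ketotic minus healthy, was -0.31 over the 32 genes and -0.18 over all genes, and 22 of 32 were below 0, against 67.2% of all genes. The smallest adjusted p was that of QDPR, 0.0606.

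Without healthy cow 7, 8 of the 32 genes fell in ketotic liver and 0 rose as the arrays were centred here. They were GLUD1, GCSH, HIBCH, QDPR, AMT, MCCC1, GOT2 and PRODH, and limma's adjusted p ran from 0.00488 to 0.0412. For each, every ketotic cow with a value lay below the mean of healthy cows 1 to 6, 7 of 7 cows for all but PRODH (6 of 6). The 8 make up 25% of the 32, beside 18.4% of the 6878 genes called lower and 1.5% called higher in the same fit, 19.9% together. The median difference was -0.37 over the 32 and -0.19 over all genes, and 25 of 32 were below 0 against 68.1% of all genes. GCSH was the 1 gene whose ketotic cows all lay below the healthy cows, beside 8.59% of all genes. The difference between the fits is the leaving out of 1 cow: leaving out any of the 13 others gave 0 calls, or 1 (QDPR) without ketotic cow 1.

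**Figure D1:**
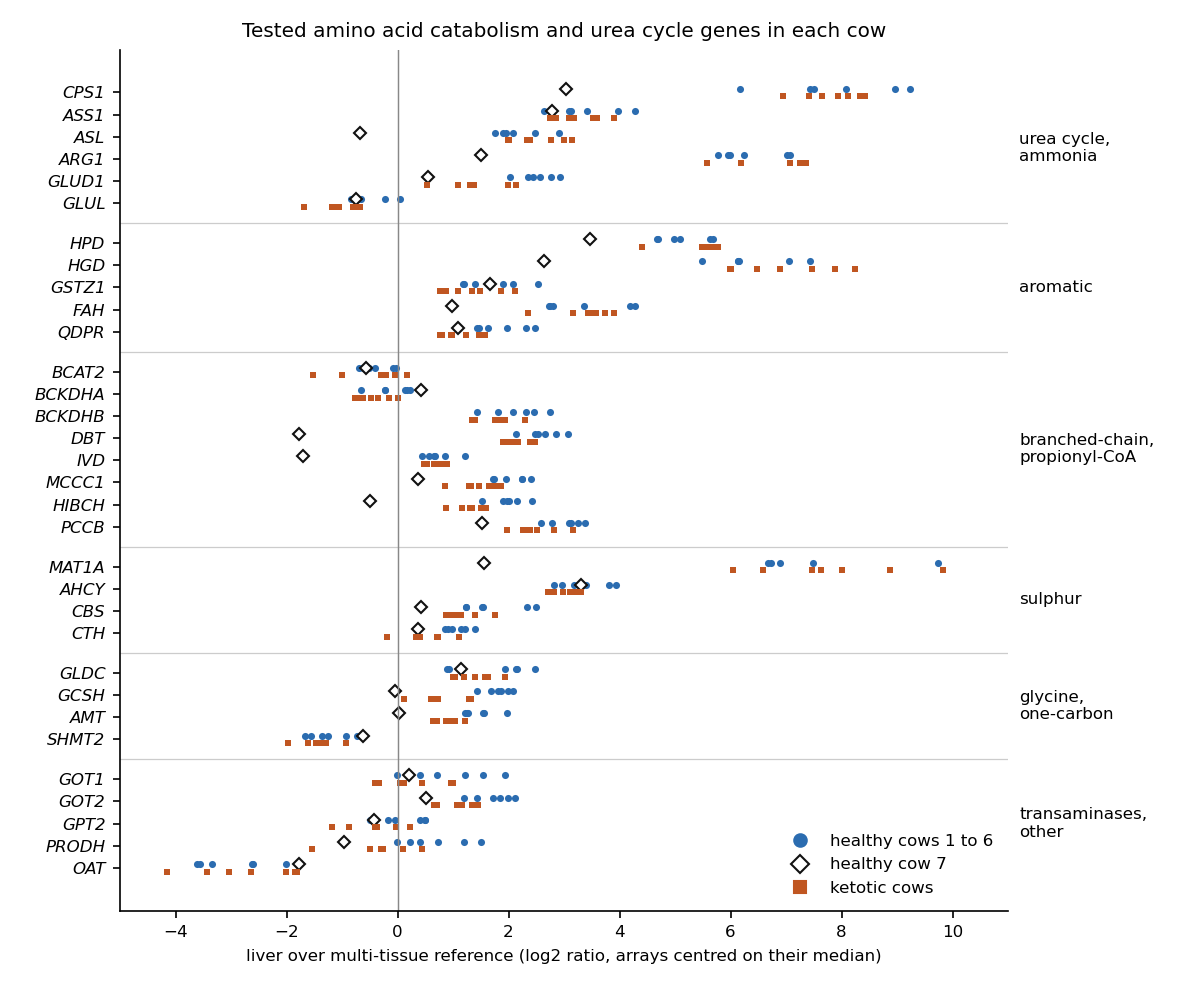
Log2 ratio of liver over reference (x axis, arrays centred on their median) for each tested gene (rows, by branch), with 1 point per cow and healthy cow 7 marked apart. MAT1A, CPS1, ARG1 and DBT show the widest distance between healthy cow 7 and the mean of the other healthy cows, and OAT lies lowest of all rows.

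Most of these genes stood above the array's median ratio in liver. The median of the gene means in healthy cows 1 to 6 was 1.85 over the 32 genes and -0.084 over all genes. In 23 of the 32, healthy cows 1 to 6 and all ketotic cows lay above 0, and 5 had a mean below 0 in both groups. Of the 36 with a probe, 22 had a value at every spot of every array.

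Healthy cow 7 lay below every other healthy cow in 20 of the 31 genes it had a value for, and above every one in 3. Over all genes it lay below the other healthy cows in 35.3%. Its median difference from the mean of the other healthy cows was -1.44 over the 31 genes, with a range of -5.95 to 1.18, and 0.0022 over all genes. The same held on each of its arrays, with 22 of 32 genes lowest on the Cy3 array and 21 of 31 on the Cy5 array.

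In the urea cycle and ammonia branch, 1 of 6 tested genes fell without healthy cow 7, beside 18.4% of all genes, and the cycle's own enzymes did not pass in either fit. GLUD1, the glutamate dehydrogenase that frees ammonia from glutamate in mitochondria, ranged from 0.55 to 2.92 in healthy cows (median 2.45) and from 0.52 to 2.13 in ketotic cows (median 1.30). Its healthy value of 0.55 was cow 7, and the next healthy cow stood at 2.03, so 1 ketotic cow at 2.13 overlapped the rest. The difference was -0.88 (SE 0.337, 1.84-fold lower, limma adjusted p = 0.0979) with all cows and -1.16 (SE 0.240, 2.23-fold, adjusted p = 0.00488) without healthy cow 7.

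GLUL, glutamine synthetase, which binds ammonia that the cycle has not taken, was between -0.85 and 0.04 in healthy cows (median -0.71) and between -1.68 and -0.68 in ketotic cows (median -1.05). The groups overlapped, and limma's adjusted p was 0.102 with all cows and 0.0721 without cow 7, for differences of -0.48 and -0.51.

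CPS1, the mitochondrial carbamoyl-phosphate synthetase that opens the urea cycle, had ketotic values from 6.94 to 8.43 (median 7.94). Healthy values ran from 3.03, which was cow 7, to 9.23 (median 7.51), and the next healthy cow stood at 6.17. Ketotic values thus lay inside the range of the other 6 healthy cows. The difference was 0.63 (95% interval -0.92 to 2.18, limma adjusted p = 0.623) with cow 7 and -0.067 (-0.96 to 0.83, adjusted p = 0.933) without it. These intervals leave room for changes of either direction.

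ARG1, the arginase that releases urea, had healthy values from 5.78 to 7.07 in cows other than cow 7, which stood at 1.51. Ketotic values ran from 5.58 to 7.37 (median 7.25), so their median lay above the highest healthy cow. Its difference was 1.22 (limma adjusted p = 0.257) with all cows and 0.53 (adjusted p = 0.269) without cow 7. The dyes disagreed on ARG1: without cow 7 it was called higher with the Cy3 arrays alone, by 1.47 (adjusted p = 0.0158), while with the Cy5 arrays alone the difference was -0.41 (adjusted p = 0.701). With array quality weights it was also called higher, by 0.77 (adjusted p = 0.0495).

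ASS1, which joins citrulline and aspartate, differed by -0.057 with all cows and -0.15 without cow 7, with 95% intervals of -0.62 to 0.50 and -0.71 to 0.41. ASL, which splits argininosuccinate into arginine and fumarate, differed by 0.74 and 0.33 (limma adjusted p = 0.269 and 0.345). Healthy cow 7 had the lowest ASL value at -0.67, against 1.76 to 2.92 in the other healthy cows.

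OTC, the ornithine carbamoyltransferase that makes citrulline, was measured in 5 healthy cows at 3.07 (cow 7) and 6.76 to 7.87, and in 2 ketotic cows at 7.16 and 7.85. ARG2, the mitochondrial arginase, had values in 7 healthy and 4 ketotic cows. Neither met the minimum of 5 cows a group. With 1 array of a cow taken as enough, OTC differed by 0.15 with all cows and -0.55 without cow 7, and ARG2 by 0.92 and 1.20, with limma adjusted p of 0.922, 0.485, 0.458 and 0.284.

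**Figure D2:**
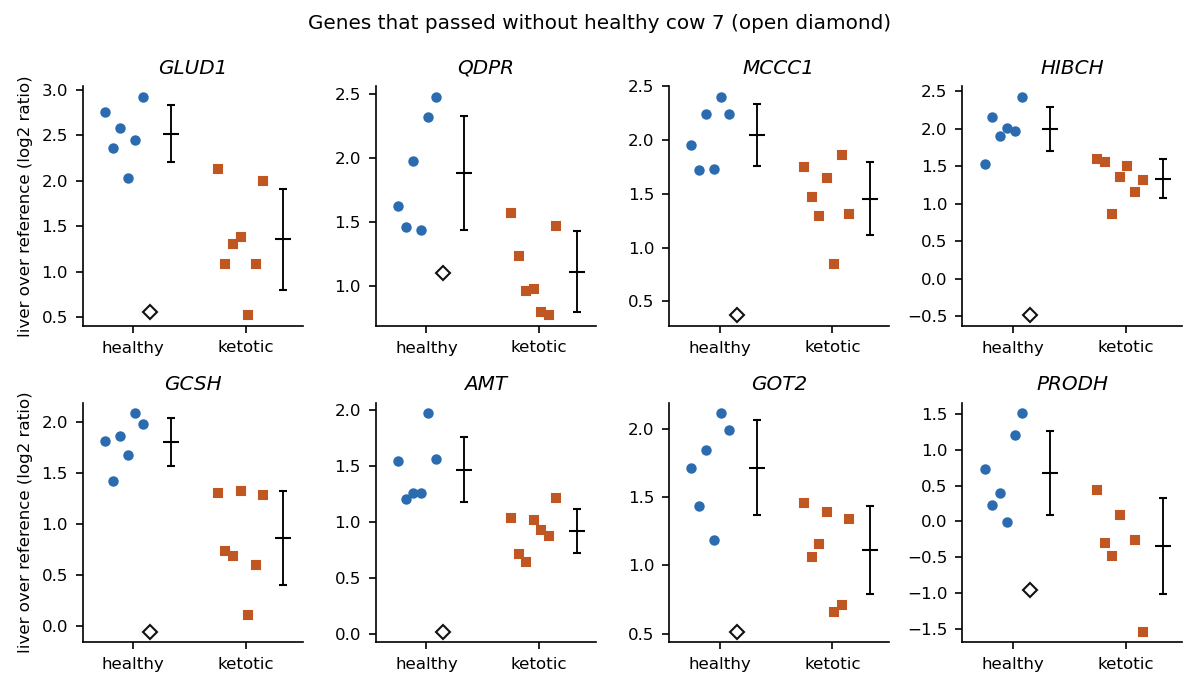
Log2 ratio of liver over reference (y axis) in healthy and ketotic cows for the 8 genes that passed without healthy cow 7, with 1 point per cow, healthy cow 7 as an open diamond, and bars for the mean and SD of healthy cows 1 to 6 and of ketotic cows. For GCSH the ketotic cows reach 1.32 at most and healthy cows 1 to 6 lie at 1.42 or more, while healthy cow 7 lies at -0.05.

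The aromatic branch had 1 gene that fell without healthy cow 7, QDPR, of 5 tested, beside 18.4% of all genes. QDPR, the dihydropteridine reductase that renews the tetrahydrobiopterin cofactor of phenylalanine hydroxylase, ranged from 1.10 to 2.48 in healthy cows (median 1.63) and from 0.77 to 1.57 in ketotic cows (median 0.97). The groups overlapped at the lower healthy values. Its difference was -0.66 (SE 0.221, limma adjusted p = 0.0606) with all cows and -0.77 (SE 0.205, 1.71-fold lower, adjusted p = 0.0180) without cow 7.

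HPD, HGD and FAH, successive or later steps of tyrosine breakdown by way of homogentisate and fumarylacetoacetate, did not pass in either fit. HGD, the homogentisate dioxygenase, ran from 5.49 to 7.43 in healthy cows 1 to 6, stood at 2.65 in cow 7, and ran from 5.99 to 8.23 in ketotic cows (median 6.89). Its difference was 1.13 (limma adjusted p = 0.237) with all cows and 0.59 (adjusted p = 0.326) without cow 7. HPD, the hydroxyphenylpyruvate dioxygenase before it, differed by 0.54 and 0.31 (limma adjusted p = 0.264 and 0.392).

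FAH, the last enzyme of the tyrosine route, differed by 0.37 and 0.036, and GSTZ1, the maleylacetoacetate isomerase before it, by -0.34 and -0.35. TAT, the aminotransferase that opens tyrosine breakdown, had values in 6 healthy cows, of which cow 7 at 0.60 was far below the others at 6.43 to 8.97, and in 3 ketotic cows at 7.19 to 7.78. The branch median was 0.37 with all cows and 0.036 without healthy cow 7.

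In the branched-chain and propionyl-CoA branch all 8 tested genes were below 0 without healthy cow 7, and 2 of them fell, beside 68.1% of all genes below 0 and 18.4% called lower. The branch median was -0.32 with all cows and -0.39 without cow 7, and 6 of 8 were below 0 with all cows.

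HIBCH, which frees hydroxyisobutyrate from its CoA ester in valine breakdown, ranged from 1.53 to 2.42 in healthy cows 1 to 6 (median 1.99) and stood at -0.49 in cow 7. Ketotic cows ranged from 0.87 to 1.60 (median 1.35), so only the top of the ketotic range met the healthy one. The difference was -0.31 (SE 0.350, limma adjusted p = 0.614) with all cows and -0.66 (SE 0.161, 1.58-fold lower, adjusted p = 0.0112) without cow 7. With the Cy5 arrays alone it was 0.0097 without cow 7.

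MCCC1, the biotin-carrying subunit of methylcrotonyl-CoA carboxylase in leucine breakdown, ranged from 1.72 to 2.40 in healthy cows 1 to 6 (median 2.10), was 0.37 in cow 7, and ranged from 0.85 to 1.86 in ketotic cows (median 1.47). The ranges overlapped slightly. Its difference was -0.35 (limma adjusted p = 0.432) with all cows and -0.59 (SE 0.179, 1.51-fold lower, adjusted p = 0.0314) without cow 7.

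PCCB, a subunit of the propionyl-CoA carboxylase that leads valine, isoleucine and rumen propionate toward succinyl-CoA, had differences of -0.32 and -0.54 (limma adjusted p = 0.462 and 0.0611). Among the subunits of the branched-chain keto acid dehydrogenase, which commits all branched-chain amino acids to breakdown, BCKDHA differed by -0.42 and -0.35 (adjusted p = 0.148 and 0.186) and BCKDHB by -0.38 in both fits, since cow 7 had no value. DBT, the core subunit of that complex, differed by 0.22 with all cows and -0.41 without cow 7 (adjusted p = 0.850 and 0.0922), and cow 7 stood at -1.77 against 2.14 to 3.07 in the other healthy cows.

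IVD, the isovaleryl-CoA dehydrogenase of leucine breakdown, moved from 0.31 to -0.036 when cow 7 was left out. BCAT2, the branched-chain aminotransferase, differed by -0.037 and -0.063. MCEE, the methylmalonyl-CoA epimerase, had values in 4 ketotic cows and was not tested. In the 5 other settings that gave MCEE enough values, its difference lay above 0 each time. It ran from 0.51 to 2.23 with all cows and from 0.16 to 1.88 without cow 7. Its limma adjusted p was at least 0.233 and 0.297.

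**Figure D3:**
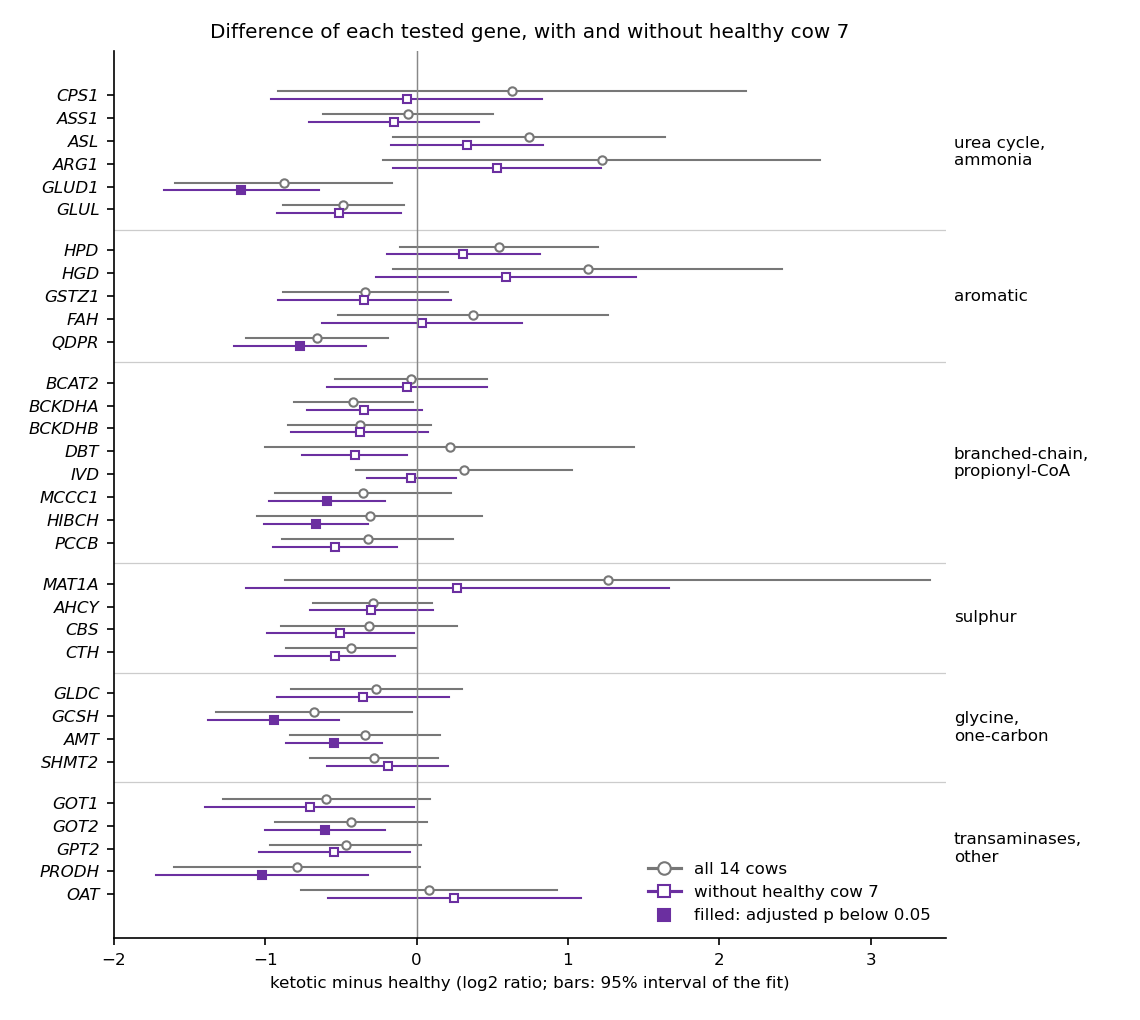
Ketotic minus healthy log2 ratio (x axis) of each tested gene (rows, by branch) with all 14 cows and without healthy cow 7, with bars for the 95% interval of the fit. Without cow 7 the points of the 8 genes that passed lie between -1.16 and -0.55, and the widest intervals with all cows are those of MAT1A and CPS1.

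In the sulphur branch 0 of 4 tested genes passed limma's test in either fit. Of all genes, 12.4% were called lower with all cows and 18.4% without cow 7. At an unadjusted limma p under 0.05 with all cows, 1 of the 4, CTH, was lower, beside 1697 of all 6958 genes. MAT1A, the liver form of the enzyme that makes S-adenosylmethionine, ranged from 6.67 to 9.74 in the 5 healthy cows other than cow 7 with a value, stood at 1.56 in cow 7, and ranged from 6.05 to 9.82 in ketotic cows (median 7.64). The ketotic range held that of those 5 healthy cows. Its difference was 1.26 (95% interval -0.87 to 3.39, limma adjusted p = 0.442) with all cows and 0.27 (-1.13 to 1.67, adjusted p = 0.809) without cow 7.

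CTH, the cystathionine lyase that yields cysteine, ran from 0.37 to 1.39 in healthy cows (median 0.98) and from -0.20 to 1.11 in ketotic cows (median 0.72). It differed by -0.44 (limma adjusted p = 0.169) with all cows and -0.54 (adjusted p = 0.0537) without cow 7. CBS, which makes cystathionine from homocysteine and serine, differed by -0.32 and -0.50 (adjusted p = 0.486 and 0.135). AHCY, which splits S-adenosylhomocysteine, ran from 2.82 to 3.94 in healthy and from 2.71 to 3.31 in ketotic cows, and differed by -0.29 and -0.30 (adjusted p = 0.325 and 0.295).

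The glycine and one-carbon branch had 4 of 4 tested genes below 0 in both fits, beside 67.2% and 68.1% of all genes, and 2 fell without healthy cow 7, beside 18.4% of all genes. GCSH, the lipoate-bearing H protein of the mitochondrial glycine cleavage system, stood at 1.42 to 2.09 in healthy cows 1 to 6 and at -0.05 in cow 7. Ketotic cows stood at 0.11 to 1.32 (median 0.73), all below those 6 healthy cows and all above cow 7. Its difference was -0.68 (SE 0.305, limma adjusted p = 0.156) with all cows and -0.95 (SE 0.202, 1.93-fold lower, adjusted p = 0.00589) without cow 7.

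AMT, the aminomethyltransferase of the same system, ranged from 1.21 to 1.97 in healthy cows 1 to 6 and from 0.65 to 1.21 in ketotic cows (median 0.93), with cow 7 at 0.024. The highest ketotic value met the lowest of the 6 healthy ones. Its difference was -0.34 (limma adjusted p = 0.365) with all cows and -0.55 (SE 0.148, 1.46-fold lower, adjusted p = 0.0197) without cow 7. GLDC, the decarboxylase that binds glycine first, differed by -0.27 and -0.36 (adjusted p = 0.556 and 0.377), and SHMT2, which links glycine and serine in mitochondria, by -0.28 and -0.19 (adjusted p = 0.382 and 0.513).

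Among transaminases and enzymes of other amino acids, 2 of 5 fell without healthy cow 7, beside 18.4% of all genes, and the branch had the lowest median, -0.47 with all cows and -0.60 without cow 7. GOT2, the mitochondrial aspartate aminotransferase, ranged from 1.19 to 2.12 in healthy cows 1 to 6 (median 1.78), stood at 0.52 in cow 7, and ranged from 0.66 to 1.46 in ketotic cows (median 1.16). The ranges overlapped. Its difference was -0.43 (limma adjusted p = 0.244) with all cows and -0.60 (SE 0.185, 1.52-fold lower, adjusted p = 0.0334) without cow 7.

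PRODH, the first enzyme of proline breakdown, ranged from -0.01 to 1.51 in healthy cows 1 to 6 and from -1.54 to 0.44 in the 6 ketotic cows with a value (median -0.28), with cow 7 at -0.96. Its difference was -0.79 (limma adjusted p = 0.190) with all cows and -1.02 (SE 0.326, 2.03-fold lower, adjusted p = 0.0412) without cow 7. Without cow 7, PRODH passed under 8 of 16 settings, the reported one included, the fewest of the 8 genes.

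GOT1, the cytosolic aspartate aminotransferase, ran from -0.01 to 1.93 in healthy and from -0.41 to 1.0 in ketotic cows, and differed by -0.60 and -0.71 (limma adjusted p = 0.241 and 0.140). GPT2, the mitochondrial alanine aminotransferase, differed by -0.47 and -0.54 (adjusted p = 0.207 and 0.117). OAT, which turns ornithine to glutamate semialdehyde, was the 1 gene of its branch with a difference above 0, at 0.082 and 0.25. Its log2 ratio lay below the array's median ratio in every cow, from -4.16 to -1.78.

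Set side by side, the branches differed more with healthy cow 7 than without it. With all cows the branch medians ran from -0.47 for the transaminases to 0.37 for the aromatic branch, with the urea cycle and ammonia branch at 0.29, the glycine branch at -0.31 and the sulphur branch at -0.30. Without cow 7 they ran from -0.60 to 0.036, with the urea branch at -0.11, the branched-chain branch at -0.39, the sulphur branch at -0.40 and the glycine branch at -0.45. With so few genes a branch, each on 1 probe, the order of the branches was not tested.

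When each gene was taken as its deviation from its mean over cows, the median over the urea branch was -2.03 in healthy cow 7 and between -0.14 and 0.77 in the other healthy cows, beside -0.56 to 0.46 in ketotic cows. The transaminase branch ran from 0.11 to 0.68 in healthy cows 1 to 6 and from -0.98 to 0.42 in ketotic cows. No branch separated all ketotic from all healthy cows. The median over all genes tested did, at 0.066 to 0.142 in healthy cows, cow 7 included, and -0.311 to 0.011 in ketotic cows. The part of this shift in the differences was not tested.

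**Figure D4:**
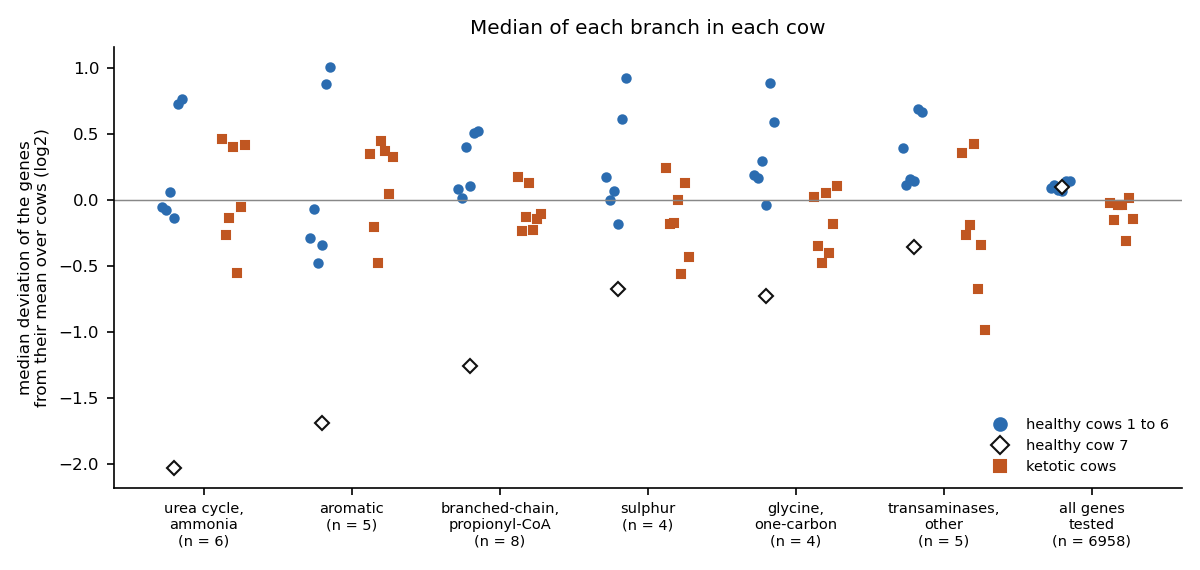
Median deviation of a branch's tested genes from their mean over cows (y axis, log2) in each cow, healthy beside ketotic, with all genes tested at the right. Healthy cow 7 lies lowest in the urea branch at -2.03, and the 7 healthy and 7 ketotic cows overlap in every branch. For all genes tested, healthy cows lie at 0.066 to 0.142 and ketotic cows at -0.311 to 0.011.

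The direction of the genes that stand highest in liver over the reference depended on the scaling of the arrays. In healthy cows 1 to 6, 5 genes had a mean above 4, namely CPS1, ARG1, HGD, HPD and MAT1A; this limit was set after the values were seen. Their median difference was 1.13 with all cows and 0.31 without cow 7 when arrays were centred only. When arrays were also scaled to 1 spread, it was -0.23 with all cows and -0.75 without cow 7, and CPS1 then differed by -0.84 and -1.52, the second with a limma adjusted p = 0.0068. The spread of the array values, as the median absolute log2 ratio, was 0.941 ± 0.124 (SD, n = 7 ketotic cows) against 0.756 ± 0.0865 (SD, n = 7 healthy cows), with a two-sided exact permutation p = 0.00758, adjusted over 3 measures 0.0227. Without cow 7 this p was 0.0175 (exact permutation, adjusted 0.0524). The part of the spread in the differences was not tested.

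Scaled to 1 spread, 5 of the 32 genes were lower with all cows, namely AHCY, ASS1, BCKDHB, GLUD1 and QDPR, and 16 without cow 7, and 0 were higher. Of all genes, 7.4% were lower and 0.503% higher with all cows under that scaling, and 18.9% and 2.38% without cow 7. Centred on probes measured on all arrays, 0 and 2 of the 32 were lower (GCSH and GLUD1), beside 7.09% and 11.3% of all genes lower. That centring shifted the median of all genes from -0.19 to -0.055 without cow 7. Counting the reported setting, GLUD1 was called lower in 17 of 17 settings without cow 7, with limma adjusted p of at most 0.0482. GCSH was called lower in 16 of 17, and HIBCH and QDPR in 15 of 17. The settings are not independent of each other. Some, such as a minimum of 3 cows a group, left the GLUD1 difference with all cows at -0.879, as reported.

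Across the 32 genes, the difference and the mean ratio in healthy cows correlated at r = 0.708 with all cows and 0.476 without cow 7 when arrays were centred only, and at -0.200 and -0.593 when scaled to 1 spread. All genes gave 0.365 and 0.109, then -0.252 and -0.471. These correlations are across genes that share cows and arrays, and the healthy mean enters both measures.

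**Figure D5:**
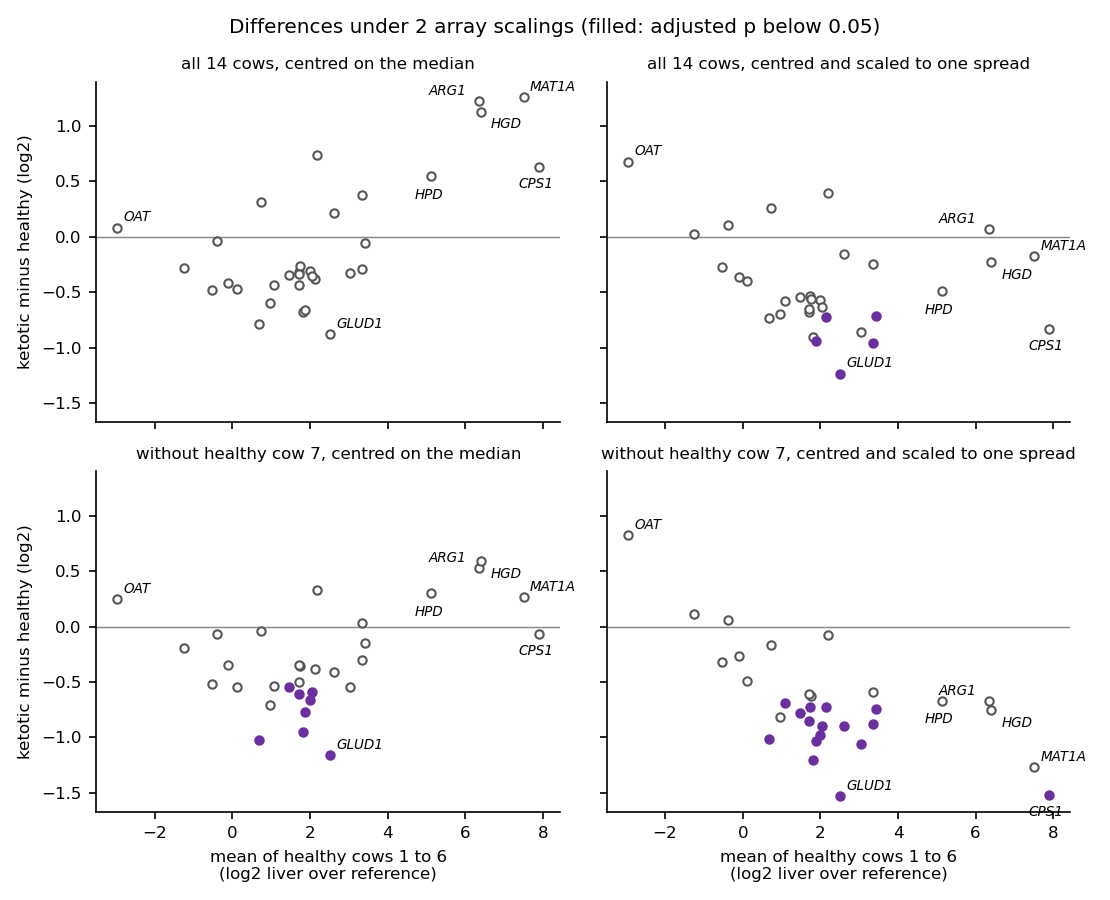
Ketotic minus healthy log2 ratio (y axis) against the mean log2 ratio of healthy cows 1 to 6 (x axis) for each tested gene, with and without healthy cow 7 and under centring only or scaling to 1 spread; filled points have an adjusted p below 0.05. The genes at the right, CPS1, ARG1, HGD, HPD and MAT1A, have a median difference of 0.31 without cow 7 when centred only and of -0.75 when scaled to 1 spread.

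Genes around these routes were taken from a list of 85, of which 50 had a probe and 44 were tested. With all cows 8 fell (18.2%) and 0 rose, beside 12.4% of all genes lower. At an unadjusted limma p under 0.05, 10 of the 44 were lower and 3 higher. Of all 6958 genes, 1697 were lower and 279 higher at that unadjusted threshold. Without healthy cow 7, 14 fell (31.8%), beside 18.4% of all genes, and 0 rose. The 44 had a median difference of -0.21 with all cows and -0.42 without cow 7.

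The lowest differences of the 44 with all cows were those of PSAT1 and PHGDH, enzymes of serine synthesis, which feeds glycine and one-carbon metabolism. PSAT1, the phosphoserine aminotransferase, ranged from -0.06 to 1.84 in healthy cows (median 0.71) and from -1.30 to 0.16 in ketotic cows (median -0.72). The groups overlapped slightly, and PSAT1 fell by 1.43 (SE 0.319, 2.69-fold, limma adjusted p = 0.0109). PHGDH, the phosphoglycerate dehydrogenase before it, ranged from -1.18 to 0.32 in healthy and from -2.36 to -0.90 in ketotic cows and fell by 0.99 (SE 0.243, 1.99-fold, adjusted p = 0.0169). Both also fell without cow 7, by 1.48 and 1.04.

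BCKDK, the kinase that phosphorylates and shuts off the branched-chain keto acid dehydrogenase, ranged from -0.70 to -0.17 in healthy and from -1.89 to -0.58 in ketotic cows, and fell by 0.74 (SE 0.182, limma adjusted p = 0.0171). The dehydrogenase subunits themselves did not pass, as given above. SIRT5, a mitochondrial deacylase known to act on CPS1, fell by 0.71 (adjusted p = 0.0266), and ASRGL1, which splits asparagine, by 0.60 (adjusted p = 0.0215). AHCYL2, a relative of AHCY, fell by 0.67 (adjusted p = 0.0244), and its ketotic cows, at -2.01 to -0.83, all lay below its healthy cows, at -0.82 to -0.23. AMD1, which draws S-adenosylmethionine into polyamine synthesis, fell by 0.80 (adjusted p = 0.0437), and MMADHC, which handles cobalamin for methylmalonyl-CoA mutase and methionine synthase, by 0.63 (adjusted p = 0.0453).

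In the fit without healthy cow 7, 6 more of these genes passed. SUOX, the sulfite oxidase at the end of cysteine breakdown, ranged from 2.68 to 3.60 in healthy cows 1 to 6 and from 1.28 to 2.78 in ketotic cows and fell by 1.22 (SE 0.214, 2.32-fold, limma adjusted p = 0.00235). HSD17B10, a dehydrogenase of isoleucine breakdown, fell by 0.93 (adjusted p = 0.0131), and AUH, the hydratase after MCCC1 in leucine breakdown, by 0.67 (adjusted p = 0.0314). PCBD1, the carbinolamine dehydratase of tetrahydrobiopterin renewal, fell by 0.91 (adjusted p = 0.0135), in the step before QDPR. MTHFD1, which interconverts folate-bound one-carbon units, fell by 0.79 (adjusted p = 0.0222), and ALDH6A1, the methylmalonate semialdehyde dehydrogenase of valine breakdown, by 0.45 (adjusted p = 0.0435). Healthy cow 7 lay below the other healthy cows in all 6, at -0.82 for AUH against 2.30 or more, and at 0.077 for SUOX.

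Beside these counts, ketotic arrays had more spots without a usable ratio, 16.5% ± 4.49 (SD, n = 7) against 11.9% ± 2.80 (SD, n = 7) (exact permutation p = 0.0338, adjusted over 3 measures 0.0507). Without healthy cow 7 this p was 0.067 (exact permutation, adjusted 0.101). With that share as a covariate, 1 of the 44 genes passed with all cows, and the share of all genes called went from 13.4% to 2.41%. Of marker lists, 3 of 9 tested macrophage genes fell with all cows (AIF1, CD74 and LAPTM5), 2 of 6 lymphocyte genes (GNLY and PTPRC) and 1 of 6 bile duct genes (KRT8), beside 12.4% of all genes; CD79B of the lymphocyte list and MMP9 of the neutrophil list rose. Without cow 7, 4 of 9 macrophage, 2 of 6 lymphocyte and 2 of 5 bile duct genes fell, beside 18.4% of all genes, and CD79B again rose. In that fit 1 of 11 stellate cell and fibroblast genes and the 1 adipocyte gene tested also fell. Of the neutrophil, endothelial, red blood cell and skeletal muscle lists 0 fell. The macrophage medians ran from 1.51 to 3.08 in healthy cows 1 to 6 and from 0.92 to 2.71 in ketotic cows. Among 16 tested hepatocyte markers ALB and APOA1 rose and 0 fell with all cows, and 2 rose and 1 fell without cow 7, with medians of 5.24 to 7.06 in healthy cows 1 to 6 and 5.36 to 6.65 in ketotic cows. Their part in the results was not tested.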

How the data were processed

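The authors deposited log2 ratios of the 2 dye channels for 27648 spots on 28 cDNA arrays; no source used here states how the scans were processed. Empty cells (103458) and values at a ceiling of 16.61 (6245) were read as missing. Array medians ran from -1.05 to 2.16. Arrays with liver in Cy3, by their titles, were turned in sign; 1 ketotic array carries a single dye name in both label fields. In the deposited form, arrays of the same dye correlated at a median r of 0.625 and of opposite dyes at -0.526.

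Adjacent spots were averaged to 13824 probes, arrays centred on their probe median, and a cow's arrays averaged where both had a value. The design text gives fewer elements than that, and control spots could not be told apart. A probe needed 5 cows a group. Names came from the platform annotation, which can be old (8645 probes with 1 symbol, 105 with several, none named from several), checked against ARS-UCD2.0 gene IDs; coordinates and sequences are not used here. A gene was the mean of its probes.

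Groups were compared in R 4.3.3 with limma 3.58.1 (lmFit, eBayes) over all genes, two-sided, Benjamini-Hochberg at 0.05. The script was tested on simulated data. Single measures had exact permutation tests over cows. The members and lists were chosen with earlier results of these data known. Named with values were genes passing either fit, the lowest p-values of each branch, and textbook enzymes (CPS1, OTC, ASS1, ARG1, TAT and MAT1A); others named were chosen to account for every tested gene. The number of arrays limits the precision, and no filter on dim spots could be applied. The labels give no hybridisation batch. Figures were drawn with matplotlib 3.10.9.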

Additional observations from a re-analysis of the deposited data

Results flagged for a closer look

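Single cows far from the rest of their group were searched for in the 33 genes named by rule, in 63 groups of 7 and 3 of 6 cows. Chance flags about 1 in 20 groups, and 13 of the 66 were found. Of these 11 were healthy cow 7, and 9 of the 11 lie in genes named because they passed only without that cow, so their number was in part set by the choice of genes. Among genes of the routes themselves its log2 ratio was 1.51 for ARG1 (nearest other healthy cow 5.78), 0.55 for GLUD1 (2.03), 2.65 for HGD (5.49), 0.37 for MCCC1 (1.72), -0.49 for HIBCH (1.53), -0.050 for GCSH (1.42) and 0.024 for AMT (1.21). Among the genes around them it was -0.82 for AUH (2.30), 1.64 for HSD17B10 (3.57), 2.02 for ALDH6A1 (3.84) and 0.077 for SUOX (2.68). In ketotic cows, cow 5 lay lowest in ALDH6A1, at 3.60 (nearest 3.88), and in AHCYL2, at -2.01 (nearest -1.28).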

How the results depend on the processing

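The count of the 32 genes that passed, 0 with all cows, was 15 with values as deposited (35.6% of all genes called), 6 with array quality weights (20.6%), 5 scaled to 1 spread (7.9%), 2 quantile normalized (8.08%), 1 with the Cy3 arrays alone (ARG1, higher; 9.28%) and 1 with genes measured in all cows (16.9%), beside 13.4% as reported; leaving out each cow gave 0 to 8, the 8 without healthy cow 7. Without that cow, 8 (19.9% of all genes) became 21 as deposited (47.5%), 16 at 1 spread (21.3%), 14 quantile normalized (19.8%), 4 centred on probes with 1 symbol (14.4%), 2 centred on probes measured on all arrays (14.7%) and 1 with Cy5 alone (2.69%). The 8 of the 44 surrounding genes (13.4% of all genes called) became 17 as deposited (35.6%). They became 3 centred on probes measured on all arrays (8.85%) and 3 centred on probes with 1 symbol (8.28%). With Cy3 alone 3 passed (9.28%), with Cy5 alone 0 (0.157%), and 1 with each cow's share of empty spots in the model (2.41%). Leaving out each cow gave 5 to 14 of the 44. The median difference between a cow's dyes, 0.29, was 0.77 as deposited. Centring on symbols or single spots was chosen after seeing the data. The cause of these shifts was not tested.

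Apart from leaving out cows, the sign turned under at least 1 setting in 13 of the 32 genes with all cows (ASS1, BCAT2, BCKDHB, CPS1, DBT, FAH, HGD, HIBCH, HPD, IVD, MAT1A, OAT and SHMT2) and in 14 without cow 7 (ARG1 and ASL in addition, BCKDHB not), none called after the turn. At 1 spread HPD was at -0.49, FAH at -0.25 and SHMT2 at 0.023 with all cows, and ARG1 at -0.67 without cow 7; DBT was at -0.34 with weights. Among the genes named by rule, signs turned for ASS1 (0.075 and 0.068 under the other centrings, 0.043 with weights, -0.17 to 0.10 with each cow left out), BCKDHB (0.083, Cy3 alone), CPS1 (-0.84 at 1 spread, -0.24 with the covariate, -0.067 to 0.97 with each cow left out), HGD (-0.23) and MAT1A (-0.18) at 1 spread, HIBCH (0.35 with all cows, 0.0097 without cow 7) and AUH (0.15) with Cy5 alone, and ALDH6A1 (0.0100 and 0.0031 under the other centrings, -0.45 to 0.013 with each cow left out). No paired analysis was possible because the groups hold different cows and their numbers follow accession order.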
